A study of Homo sapiens with 3 samples.

Results

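Intergenic H3K27ac peaks without H3K4me3 were examined in H2087 cells, a long-established line from a human lung adenocarcinoma. They were the intervals of the H3K27ac peak list that shared no base with an H3K4me3 peak, lay over 3 kb from every annotated gene start, were centred outside all protein-coding genes and lay at most 50 kb from a protein-coding start (hg19, GENCODE 44). Of 24096 H3K27ac peaks, 18309 shared no base with an H3K4me3 peak, 12671 of these were over 3 kb from every gene start, 4726 of these were outside protein-coding genes, and 2497 (10.4% of all H3K27ac peaks) met the whole rule. These 2497 peaks are called members here. The lists themselves thus chose the members, by overlap and position, and the values below that come from the same lists are descriptions without a test.

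The series held 1 library of chromatin immunoprecipitated with an antibody to H3K27ac, 1 with an antibody to H3K4me3, and 1 input library without immunoprecipitation, which was not analysed here. All came from untreated H2087 cells, so that every value describes a single cell line in a single state. With 1 library per mark (n = 1) there was no replicate error and no p-value was computed. All intervals given are at the 95% level, reflect counting error alone and take peaks as independent of their neighbours. The sequencing depth is unknown from the peak lists, so that too few reads and a missing mark look the same.

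Histone H3 acetylated at lysine 27 is deposited by the acetyltransferases CBP and p300 and marks active promoters and enhancers, whereas H3 trimethylated at lysine 4 is concentrated at promoters. A region away from gene starts with the acetyl mark and without the methyl mark is often taken as a candidate active enhancer. The study names monomethylated lysine 4 (H3K4me1) beside H3K27ac as a mark of active enhancers, and the series held no library of H3K4me1. Transcription factors bind enhancers in open DNA between nucleosomes, and the acetylated nucleosomes lie beside the bound site. In epithelial cells, FOS and JUN dimers (AP-1), TEAD, forkhead and GATA factors are well known to occupy enhancers, and in lung epithelium the homeodomain factor NKX2-1 and CEBPA act together with them.

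Sequences of members were read from the GRCh37 assembly as 300 bp windows at the centre of the peak, forward strand, 5′ to 3′. The windows shown are from members that held the AP-1 motif TGANTCA and were among those with the highest −log10 q (the strength that the authors' peak caller gave each peak) or with the most matches. Members rich in repeated sequence were left out after the letters had been seen, and not every window that met these terms is shown. Diverged copies of repeats, which counts of exact words can miss, may remain in the windows shown. Capitals mark the AP-1 matches. The pattern takes any base in the middle, where the usual AP-1 site has C or G. The matches of the MIA2 and HOPX peaks have T and A there, and the PDGFA match nearer the 3′ end has T. The peaks are named by the nearest protein-coding start, at 26.4 kb for MIA2, 17.1 kb for HOPX, 22.8 kb for PDGFA and 11.6 kb for PHLDA2.
MIA2 peak, chr14:39672622-39672921: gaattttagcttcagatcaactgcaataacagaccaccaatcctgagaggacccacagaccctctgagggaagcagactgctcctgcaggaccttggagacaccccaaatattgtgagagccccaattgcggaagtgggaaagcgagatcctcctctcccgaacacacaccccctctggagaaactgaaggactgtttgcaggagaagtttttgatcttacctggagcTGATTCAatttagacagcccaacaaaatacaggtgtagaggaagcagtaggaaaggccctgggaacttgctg
HOPX peak, chr4:57565098-57565397: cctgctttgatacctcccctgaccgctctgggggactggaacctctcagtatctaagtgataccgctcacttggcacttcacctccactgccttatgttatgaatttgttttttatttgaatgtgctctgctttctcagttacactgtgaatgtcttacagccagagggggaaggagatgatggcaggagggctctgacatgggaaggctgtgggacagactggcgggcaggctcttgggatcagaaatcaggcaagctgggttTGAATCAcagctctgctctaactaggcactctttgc
PDGFA peak, chr7:582849-583148: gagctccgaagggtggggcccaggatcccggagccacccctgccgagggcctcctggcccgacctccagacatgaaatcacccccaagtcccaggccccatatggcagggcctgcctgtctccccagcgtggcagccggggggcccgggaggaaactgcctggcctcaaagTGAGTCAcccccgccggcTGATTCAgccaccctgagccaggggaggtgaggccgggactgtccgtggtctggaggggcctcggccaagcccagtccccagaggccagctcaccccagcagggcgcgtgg
PHLDA2 peak, chr11:2962595-2962894: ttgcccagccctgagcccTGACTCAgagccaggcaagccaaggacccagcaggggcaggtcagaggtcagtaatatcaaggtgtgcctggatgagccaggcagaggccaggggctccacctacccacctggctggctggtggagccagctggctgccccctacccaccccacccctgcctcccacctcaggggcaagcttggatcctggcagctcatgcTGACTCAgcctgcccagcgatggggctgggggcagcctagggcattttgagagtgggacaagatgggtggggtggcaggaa

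The −log10 q was 7.46 for the MIA2 peak and 5.98 for the HOPX peak, each with 1 match, against a median of 2.47 for all members. High-copy 16-base words made up 0.769% of the words of the HOPX peak. The windows near PDGFA (platelet-derived growth factor A) and PHLDA2 held 2 matches each, in peaks of −log10 q 4.51 and 3.05. HOPX encodes a homeodomain protein of alveolar type I cells, and its start carried neither mark.

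A match between peaks is also shown, since AP-1 was found there more often than within them (values given further on). The gaps were the stretches of up to 1 kb between neighbouring members. The gap shown, of 890 bp near SRP14, was among those with a match whose weaker flanking peak had the highest −log10 q, under the same exclusions, and is cut to its central 300 bp. SRP14 encodes a protein of the signal recognition particle.
SRP14 gap, chr15:40339138-40339437: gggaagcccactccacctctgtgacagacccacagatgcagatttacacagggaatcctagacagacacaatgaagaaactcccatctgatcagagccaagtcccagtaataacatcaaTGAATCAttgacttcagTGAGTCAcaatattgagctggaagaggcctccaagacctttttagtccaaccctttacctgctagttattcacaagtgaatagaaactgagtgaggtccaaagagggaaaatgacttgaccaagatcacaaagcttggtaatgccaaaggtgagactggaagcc

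The SRP14 gap held 2 matches, of which that nearer the 5′ end has A in the middle. Its flanking peaks had −log10 q values of 3.55 and 5.12 and lay 7.22 kb or more from the start.

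Members were narrow. Their median width was 273 bp (95% interval 269 to 278, interquartile range 222 to 374), and 14 of 2497 (0.561%, 0.307 to 0.939) reached 1 kb. The median −log10 q was 2.47 (2.45 to 2.57), with values from 1.303 to 10.57, and 174 members (6.97%, 6.0 to 8.04) reached 5. The lower end is set by the list itself, whose lowest value was 1.303. H3K27ac-only peaks elsewhere had median widths of 267 bp beyond 50 kb, 270 bp in protein-coding gene bodies and 274 bp within 3 kb of a start. A −log10 q of 5 was reached by 7.81% (6.73 to 9.0) of those beyond 50 kb, 5.36% (4.88 to 5.88) of those in gene bodies and 6.17% (5.56 to 6.83) of those near starts, and the interval of the gene bodies lay below that of members. H3K27ac peaks that shared a base with H3K4me3 were wider, with medians of 365 bp (354 to 378) away from starts and 339 bp (332 to 347) within 3 kb of one. Their −log10 q medians were 3.32 and 3.05, and 20.2% and 16.5% of them reached 5.

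Most of the strongest members had other H3K27ac peaks within 10 kb, as did 72.0% of all members. The highest −log10 q was 10.6, at chr1:156369637-156369851, 30.6 kb downstream of the start of RHBG, an ammonium transporter of epithelia. The next, 10.3 at chr1:156368671-156369054, was its neighbour. The peak ranked next, of 10.1 at chr10:74082892-74083823 was 932 bp wide with 2 summits and lay 31.1 kb downstream of the start of DNAJB12, a chaperone of the endoplasmic reticulum. The other 7 of the 10 strongest members ranged from 8.25 near TRIM55 to 9.72 near KLHL38, with values of 9.55 near CTDSP2, 9.05 near CYP11A1, 8.86 near PRDM10, 8.83 near SMURF2 and 8.68 near SYS1. The PRDM10 peak was the only one of the 10 without another H3K27ac peak within 10 kb, and the others had between 3 and 13. None of these 10 windows held an AP-1 match, nor did those of the 3 widest members. Over all members the share was only 6.13%, so that none among so few does not set them apart. The peaks near PRDM10 and SMURF2 were also rich in repeats, with 82.3% and 84.9% of their 16-base words in high copy (defined below).

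The widest members were 1793 bp near ARID5A (chr2:97220559-97222351, 4 summits), 1667 bp near FASLG (chr1:172608336-172610002, 3 summits) and 1448 bp near C20orf204 (chr20:62671980-62673427, 2 summits). Their −log10 q values of 5.36, 4.99 and 2.47 were below those of the strongest members. At the limits of the rule, the members just over 3 kb from a gene start of any type had −log10 q values of 2.82, 2.16 and 4.32. Their nearest protein-coding starts were those of SERTAD2, SLC20A1 and CITED2, at 19.9, 20.5 and 3.01 kb. The peaks just short of that limit had 3.71, 1.85 and 4.32. Theirs were those of FTH1, SEPTIN9 and DYNC1H1, at 3.09, 18.8 and 3.0 kb. Just inside 50 kb (near BOD1, TLR5 and MAGEF1) the values were 2.16, 3.74 and 1.77, and just outside (near ZNF706, SLN and SLX9) 1.33, 7.59 and 2.09.

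Members became sparser with distance from the nearest protein-coding start, and lay mainly near starts that carried H3K4me3. The rule left 356.1 Mb of intergenic sequence in which a peak centre could fall, with 7.01 members per Mb (6.74 to 7.29). By the distance of the centre, the density fell from 9.71 per Mb (8.48 to 11.1) at 3 to 5 kb to 7.23 (6.69 to 7.81) at 10 to 20 kb and 5.78 (5.15 to 6.47) at 40 to 50 kb. The same kind of peak beyond the limit had 5.23 per Mb (4.90 to 5.56) at 50 to 100 kb and 0.833 (0.763 to 0.909) beyond 200 kb. The limit of 50 kb thus cuts a gradual decline and no step was seen there. The median distance of members was 18.8 kb (18.1 to 19.5).

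Starts with a peak of the mark no more than 1 kb away were taken as marked. The nearest start carried H3K4me3 for 1467 members (58.8%, 56.8 to 60.7), whereas 31.7% of the sequence had such a start nearest and 38.2% of all 20163 protein-coding starts carried the mark. This gave 13.0 members per Mb (12.3 to 13.7) where the nearest start was marked and 4.24 (3.98 to 4.50) where it was not. Intervals of the marked and the unmarked sequence did not overlap in any of the 6 distance steps. Of the 1030 members whose nearest start was unmarked, 263 (25.5%, 22.9 to 28.3) had another protein-coding start with H3K4me3 within 50 kb. H3K27ac was present at the nearest start of 43.5% of members (41.5 to 45.5), against 23.6% of all starts, and neither mark at that of 34.2%. The share with a marked nearest start was 59.4% (57.4 to 61.5) for the peaks beyond 50 kb and 55.5% (54.4 to 56.6) for those in gene bodies, close to that of members. With the stronger part of the H3K4me3 list alone, members with a marked nearest start were 43.4%, beside 26.8% of all starts.

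**Figure D1:**
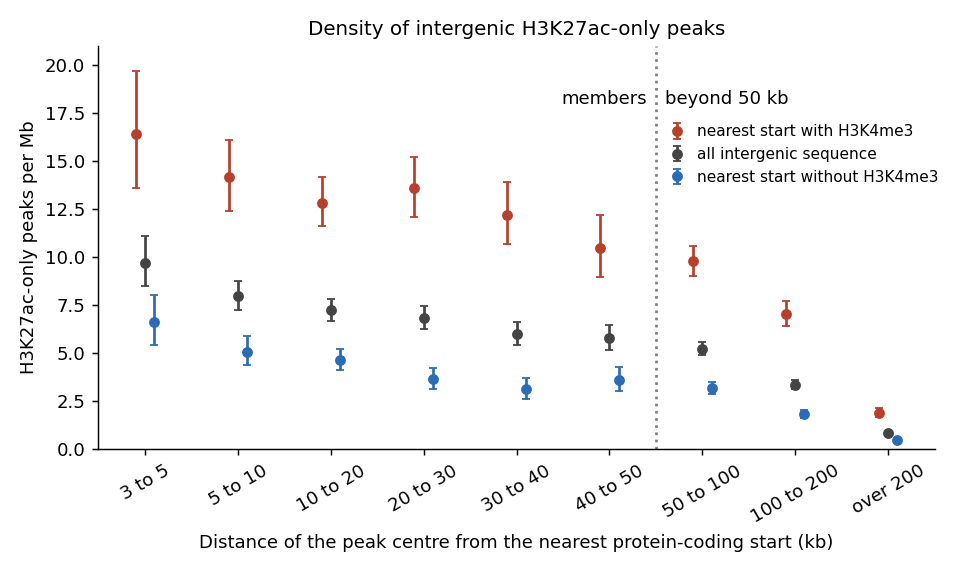
Intergenic H3K27ac-only peaks per Mb of sequence (vertical axis) by distance of the peak centre from the nearest protein-coding start in kb (horizontal axis, steps of unequal size), with exact Poisson 95% intervals as bars. Red points are sequence whose nearest start had H3K4me3 within 1 kb, blue points the rest and dark points both; members lie left of the dotted line, where red points run from 16.4 to 10.5 and blue points from 6.63 to 3.61.

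The sides of the start differed less than its marks. Of the members, 76.1% (74.3 to 77.7) lay upstream of the nearest start, and so did 78.2% of the sequence, since the downstream side is mostly taken by the gene itself. The density was 6.82 per Mb upstream (6.51 to 7.13) and 7.71 downstream (7.11 to 8.36). The intervals of the sides did not overlap at 20 to 30 kb, with 6.32 upstream (5.68 to 7.01) and 8.44 downstream (7.15 to 9.90), and overlapped in the other steps up to 50 kb. At 3 to 5 kb the upstream value was the higher, 9.75 against 9.27.

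Most members belonged to groups of acetylated peaks. Another H3K27ac peak of any kind lay within 10 kb of 1799 members (72.0%, 70.2 to 73.8), against 68.6% (68 to 69.2) of all H3K27ac peaks. The share was 60.2% (58.1 to 62.2) for the peaks beyond 50 kb, 69.1% in gene bodies, 69.5% for H3K27ac-only peaks within 3 kb of a start and 78.4% (76.2 to 80.4) for distal peaks with H3K4me3. Members with such a neighbour had a marked nearest start in 63.6% of cases (61.4 to 65.9), and those without in 46.1% (42.4 to 49.9). When members within 10 kb were joined, 1513 stretches resulted, of which 1024 held a single member, 489 held 2 or more and 60 held 5 or more. The 489 stretches contained 59.0% of all members and had a median length of 4.04 kb.

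The 5 stretches with the most members held 12 to 15 each over 21.3 to 29.0 kb, and peaks covered 15.1% to 25.5% of their length. The first was at chr15:74675372-74700287, upstream of CYP11A1, which encodes the enzyme that cleaves the side chain of cholesterol, and reached towards SEMA7A, a membrane-anchored semaphorin. From the CYP11A1 side outwards its 15 members had −log10 q values of 3.4, 6.55, 2.82, 3.09, 3.17, 3.4, 9.05, 1.47, 3.47, 2.22, 3.4, 5.92, 4.67, 1.79 and 2.36. The strongest, 278 bp wide, lay within an intron of the lncRNA gene LINC02255, and the widest, of 1274 bp, had 5.92. None of the 15 windows held an AP-1 match, beside 6.13% of all members, and 1 was rich in repeats. The stretch contained 3 H3K4me3 peaks, whereas the start of CYP11A1 carried neither mark.

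The stretch at chr1:16491180-16512454 held 13 members, 12 of them nearest to EPHA2, an ephrin receptor tyrosine kinase whose transcription follows RAS and MAPK signalling. Their −log10 q values were 1.79, 1.55, 1.55, 2.82, 2.82, 2.82, 2.16, 2.82, 1.89, 5.1, 1.4, 2.16 and 4.64 in order of position. The pair above 4 stood apart from the other 11, which lay between 1.40 and 2.82. An AP-1 match was present in the members of 404 bp and 632 bp, no H3K4me3 peak lay in the stretch, and the start of EPHA2 carried H3K27ac without H3K4me3. The stretch at chr2:43406455-43435434 held 12 members downstream of ZFP36L2, which encodes an RNA-binding protein that promotes decay of mRNAs with AU-rich elements. Their −log10 q values, 5.71, 3.09, 3.42, 4.52, 5.12, 4.39, 3.05, 2.54, 4.65, 3.55, 4.65 and 4.88, were all above the median of members. The other stretches were at chr12:58253934-58281422, with 13 members near CTDSP2 and ATP23 and values from 1.44 to 9.55, and at chr8:67430944-67453736, with 12 members downstream of VXN and values from 1.66 to 7.68. The stretch on chromosome 12 contained 3 H3K4me3 peaks and that on chromosome 8 contained 1, whereas the stretch near ZFP36L2 had none.

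A protein-coding gene was counted when it was the nearest of at least 1 member, which held for 1341 of 20163 genes (6.65%). Of these, 810 had 1 member and 73 had 5 or more, and the 73 genes accounted for 521 members (20.9%). The share of starts with H3K4me3 was higher where more members had the gene as their nearest. It was 37.1% (36.5 to 37.8) for genes without a member, 48.8% (45.3 to 52.3) with 1, 52.6% (46.4 to 58.8) with 2, 65.6% (58.4 to 72.3) with 3 or 4, and 71.2% (59.4 to 81.2) with 5 or more. The share with both marks went from 17.7% (17.1 to 18.2) to 53.4% (41.4 to 65.2) over the same groups. The nearest gene is a matter of position, and which gene a peak acts on was not measured.

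**Figure D2:**
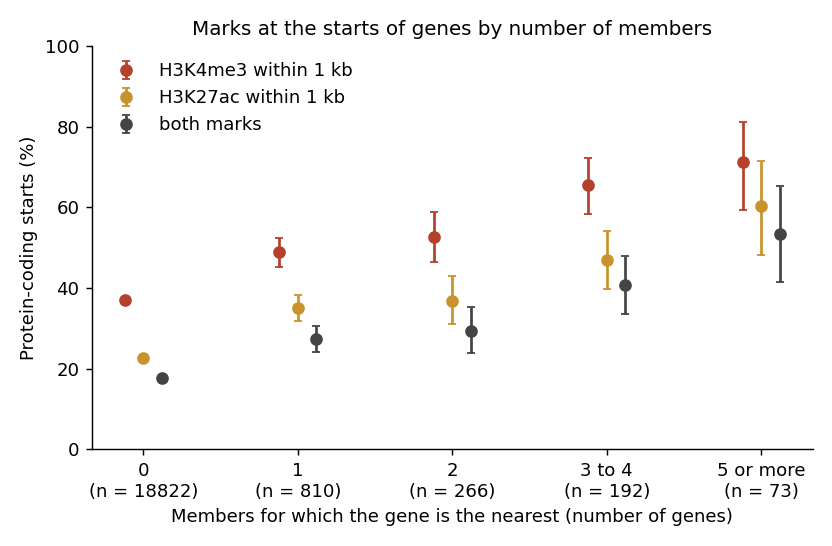
Protein-coding starts (%) with H3K4me3, H3K27ac or both marks within 1 kb (vertical axis), for genes grouped by the number of members to which they are the nearest (horizontal axis, number of genes in brackets); bars are exact 95% intervals. All 3 shares are lowest for genes without a member, at 37.1%, 22.5% and 17.7%, and highest for genes with 5 or more, at 71.2%, 60.3% and 53.4%.

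The genes nearest to most members were LRATD2 with 15, KLHL38 and CYP11A1 with 14 each, VXN, ZFP36L2, EPHA2 and ERRFI1 with 12 each, and LPCAT1, PTMA and DDIT4 with 11 each. The starts of LRATD2, ZFP36L2, LPCAT1, PTMA and DDIT4 carried both marks, that of ERRFI1 H3K4me3 alone, that of EPHA2 H3K27ac alone, and those of KLHL38, CYP11A1 and VXN neither. ERRFI1 encodes an inhibitor of the EGF receptor, and its 12 members, all upstream, had values from 1.40 to 5.12. However, 11 of these 12 were rich in repeats, as were 8 of 15 at LRATD2 and 6 of 11 at DDIT4, a stress-induced inhibitor of mTORC1. At LPCAT1, which encodes an acyltransferase of surfactant phospholipid synthesis in alveolar type II cells, the 11 members lay 12.5 to 42.6 kb upstream. Their −log10 q values in order of position were 2.22, 5.31, 3.71, 2.65, 3.05, 5.98, 2.65, 2.82, 4.01, 7.53 and 3.71, of which only the first was below the median of all members. Of the 11 LPCAT1 members, 1 was rich in repeats, 2 held an AP-1 match, and 5 lay within 1 kb of an H3K4me3 peak.

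Gene lists were set beside the 6.65% of all protein-coding genes with a member. Among 23 genes of epithelial keratins and junctions, 11 (47.8%, 26.8 to 69.4) had at least 1 member, 31 members in all, and 18 had H3K4me3 at the start. Every member of KRT8, CDH1, CLDN1, EPCAM and GRHL2 was rich in repeats (defined further on), and without repeat-rich members 6 of 23 genes (26.1%, 10.2 to 48.4) remained, beside 5.14% of all genes. KRT80, a keratin of stratified and carcinoma cells, had 10 members with −log10 q values of 3, 1.86, 3.4, 2.87, 3.59, 5.77, 1.66 and 2.89 in the stretch beyond its 3′ side and 1.82 and 1.65 upstream. ELF3, an epithelial ETS factor, had 5 of 2.32 to 5.33, KRT19 4 of 2.16 to 4.32, JUP (plakoglobin, of desmosomes and adherens junctions) 3 of 3.54 to 4.29, and KRT7 and EPCAM 2 each. KRT8, CDH1 (E-cadherin), CLDN1, PKP2 and GRHL2 had 1 member each. KRT18 and CLDN7 had no member, although their starts carried both H3K4me3 and H3K27ac.

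Of 20 genes of MAPK output and feedback, 10 (50%, 27.2 to 72.8) had a member, and 7 (35%, 15.4 to 59.2) without repeat-rich members, which removed SPRED2, PHLDA1 and MYC. Beside EPHA2 these were SPRY4 with 6, DUSP1 and DUSP5 with 4 each, IER3 and PHLDA1 with 2 each, and SPRED1, SPRED2, CCND1 and MYC with 1 each. SPRY4, a feedback inhibitor of receptor tyrosine kinases, had values of 1.58, 5.52, 3.52, 3.66, 5.12 and 2.1, 5 of them in a group 29.3 to 37.9 kb upstream. The MYC member, 10.5 kb downstream of the start with a value of 4.88, was rich in repeats. DUSP4, DUSP6, SPRY1, SPRY2, EGR1 and the ETV genes had none. Among 14 genes for AP-1 factors, 7 (50%, 23 to 77) had members, which were JUND with 4, FOSL1 and FOSL2 with 3 each, BATF3 with 2, and FOS, JUN and MAFK with 1 each. The FOSL2 members had −log10 q values of 3.17, 4.47 and 1.89 at 33.3 to 44.6 kb upstream. Those of the other AP-1 genes were below the median of members, with 1.39 to 2.16 at JUND, 1.57 to 2.1 at FOSL1 and 1.55 to 2.16 at BATF3.

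Genes of the lung lineage had fewer, 4 of 19 (21.1%, 6.05 to 45.6), although LPCAT1 alone had 11 of the 16 members. Without repeat-rich members the count stayed at 4 of 19, beside 6 of 23 epithelial, 7 of 20 MAPK and 7 of 14 AP-1 genes. The interval of the lung lineage overlapped those of these lists, with and without repeat-rich members. HOPX had 3 members of 5.98, 5.98 and 1.93, NKX2-1 had 1 of 4.19 3.04 kb upstream of its start and 0.765 kb from an H3K4me3 peak, and CEBPA had 1 of 2.09 and 798 bp. The surfactant genes SFTPA1, SFTPA2, SFTPB, SFTPC and SFTPD had none, and of these starts only that of SFTPD carried a mark, H3K4me3. For NRF2 targets, 5 of 22 (22.7%, 7.82 to 45.4) had a member, with 3 at AKR1B10 and 1 each at HMOX1, TKT, ABCC2 and ABCC3. The members at HMOX1 and TKT were rich in repeats, and without such members 3 of 22 (13.6%, 2.91 to 34.9) remained. For YAP and TEAD targets, it was 2 of 15 (13.3%, 1.66 to 40.5), AMOTL2 with 3 and F3 with 1. Cytosolic ribosomal protein genes, most of them active in every cell, had a member in 6 of 88 cases (6.82%, 2.54 to 14.3). Of the 88 starts, 56 carried H3K4me3, and without repeat-rich members 4 genes (4.55%, 1.25 to 11.2) had a member. This list was drawn by gene symbol, so that it also holds read-through loci such as RPS10-NUDT3, paralogs such as RPL22L1 and RPS4Y2, and RPS19BP1. Lists hold few genes and gene size and spacing differ between them, so that these shares are descriptions.

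The label of the line was compared with markers at the starts. Of 7 lung adenocarcinoma markers, NKX2-1, KRT7 and CDH1 carried both marks, EPCAM H3K4me3, MUC1 H3K27ac, and NAPSA and SFTPB neither, and 4 of the 7 had a member. Without repeat-rich members, which were the only ones at EPCAM and CDH1, 2 of the 7 did. Of the squamous markers, TP63, KRT5 and DSG3 carried neither mark, and SOX2 carried both with 1 member of 2.16. Blood and endothelial markers had no marked start, CD3E having 1 member of 2.18, and PDGFRA alone among the fibroblast markers had H3K4me3.

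The DNA of members was richer in G and C than the sequence around them and held more repeated sequence than other H3K27ac peaks. In the central 300 bp, the median GC content was 53.0% (53.0 to 53.3), against 42.0% in 1186781 windows of 300 bp tiled over the same intergenic sequence. It was 52.3% for the peaks beyond 50 kb, 54.3% for those in gene bodies and 64.3% for peaks with H3K4me3 within 3 kb of a start. The ratio of observed to expected CpG was 0.242 at the median, and 107 members (4.29%, 3.52 to 5.15) had a ratio of at least 0.6 with at least 50% GC, against 55.6% (54.1 to 57.1) of the promoter peaks with H3K4me3.

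Repeated sequence was measured in 2 ways on GRCh37. Multi-copy peaks were those with over 50% of words of 32 bases found again elsewhere in the assembly, and repeat-rich peaks those with over 50% of words of 16 bases found at least 100 times. Repeat-rich members numbered 695 (27.8%, 26.1 to 29.6), a share above that of the tiled windows (18%) and of every other class of H3K27ac peak. Peaks were scored over their whole length, whereas the windows were all of 300 bp and were not weighted to the GC content of members. The other H3K27ac-only classes had 19.6% (17.9 to 21.3) beyond 50 kb, 21.4% (20.5 to 22.3) in gene bodies and 17.6% within 3 kb of a start. Peaks with H3K4me3 had 13.3% away from starts and 6.04% within 3 kb. Multi-copy members numbered 475 (19%, 17.5 to 20.6). Repeat-rich members had a median −log10 q of 2.64 (2.45 to 2.82), against 2.45 (2.39 to 2.50) for the other 1802, and a median width of 253 bp against 286 bp. Their nearest start was marked in 62.7% of cases (59.0 to 66.3), against 57.2% (54.9 to 59.5). Reads from such sequence can match several places, and how they were treated in the peak lists is not stated, so that the part of mapping in these calls was not tested.

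Motifs of 17 factors or families were searched on both strands in the central 300 bp. They were TGANTCA for AP-1, TGACNNNGC for the antioxidant response element of NRF2, TGTTTAC for forkhead factors, GGAATG for TEAD, CAAGTG for NKX2, TTGCNNAA for CEBP, AGATAA for GATA factors, TGTGGTT for RUNX, ACCGGAAG for ETS, GGGNGGG for KLF and SP, GCCNNNGGC for AP-2, CAGCTG for TFAP4, CACGTG for MYC and other E-box factors, AANATGGC for YY1, CCAAT for NFY, TTCNNNGAA for STAT, and the CTCF motif. The AP-1 and antioxidant motifs can overlap, as can those of AP-2 and KLF or SP. Matches to TGANTCA with C or G in the middle were not counted apart from those with A or T. Beside the share of all members, and of all gaps between them, stands that of the tiled windows weighted to the same GC content, since richness in G and C alone changes it.

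AP-1 was less frequent in members than in the windows. It occurred in 153 members (6.13%, 5.22 to 7.14), against 9.11% of all tiled windows and 7.44% at the GC content of members. The forkhead motif occurred in 1.68% (1.21 to 2.27) against 2.39%, and NFY in 23.8% (22.2 to 25.5) against 26.7%. The shares were close to the windows for TEAD at 14% against 14.8%, NKX2 at 21.6% against 21%, GATA at 8.13% against 8.24%, CEBP at 8.09% against 8.46%, KLF and SP at 32.1% against 31.8% and RUNX at 4.04% against 4.15%. The antioxidant element stood at 12.5% against 12.8%, AP-2 at 13.2% against 12.5%, TFAP4 at 18.3% against 19.1%, the MYC E-box at 4.81% against 4.89%, YY1 at 6.89% against 6.13%, STAT at 5.37% against 5.45%, ETS at 0.280% against 0.235% and CTCF at 0.160% against 0.392%. Among the 1802 members that were not repeat-rich, AP-1 occurred in 6.94% (5.81 to 8.21) and in 8.08% of comparable windows, and NKX2 in 16.9% and 17.8%. The interval of AP-1 then included the value of the windows.

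The picture was the opposite beside the peaks. Neighbouring members at most 1 kb apart left 350 gaps with a median length of 500 bp (interquartile range 328 to 701). The central 300 bp of 59 gaps held an AP-1 match (16.9%, 13.1 to 21.2), against 8.10% of tiled windows at the GC content of the gaps and 7.01% (5.12 to 9.33) of the 613 members that flanked them. Gaps of over 400 and up to 700 bp had a match in 31 of 138 cases (22.5%, 15.8 to 30.3), gaps up to 400 bp in 15 of 123 (12.2%, 6.99 to 19.3) and gaps over 700 bp in 13 of 89 (14.6%, 8.01 to 23.7). For gaps under 300 bp the window reached into the peaks. Where neither the gap nor its flanking peaks were repeat-rich, 43 of 209 gaps (20.6%, 15.3 to 26.7) held a match. These include the gap near SRP14 printed above. For gaps without repeats, no share of comparable windows without repeats is given here, for AP-1 or for the motifs below.

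Forkhead matches occurred in 19 of 350 gaps (5.43%, 3.30 to 8.35), against 2.86% of the windows and 0.816% (0.265 to 1.89) of the flanking members, but in 3.83% (1.67 to 7.4) of gaps without repeats. TEAD occurred in 18.9% of gaps (14.9 to 23.4) against 15.4%, and in gaps without repeats in 22% (16.6 to 28.2). GATA stood at 14.3% (10.8 to 18.4) against 11.3%, RUNX at 6.57% (4.21 to 9.70) against 4.64%, CEBP at 12% (8.79 to 15.9) against 10.4%, and NKX2 at 19.4% (15.4 to 24) against 20.4%. Of the 17 motifs, AP-1 and forkhead were those whose interval in the gaps lay above the windows. YY1 was lower there, at 3.71% (1.99 to 6.27) against 6.31%, a value just past its interval. The gaps of other H3K27ac peaks were similar for AP-1, with 17.1% (12.8 to 22.1) beyond 50 kb, 18.5% (16.1 to 21) in gene bodies and 26.2% (18.8 to 34.6) among distal peaks with H3K4me3. At promoters with H3K4me3 it was 8.0% (5.96 to 10.5), an interval that did not overlap that of the gaps between members. These shares of other classes stand without windows of their own GC content. The promoter peaks with H3K4me3 had a median GC content of 64.3%, and the part of GC content in this difference was not tested.

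**Figure D3:**
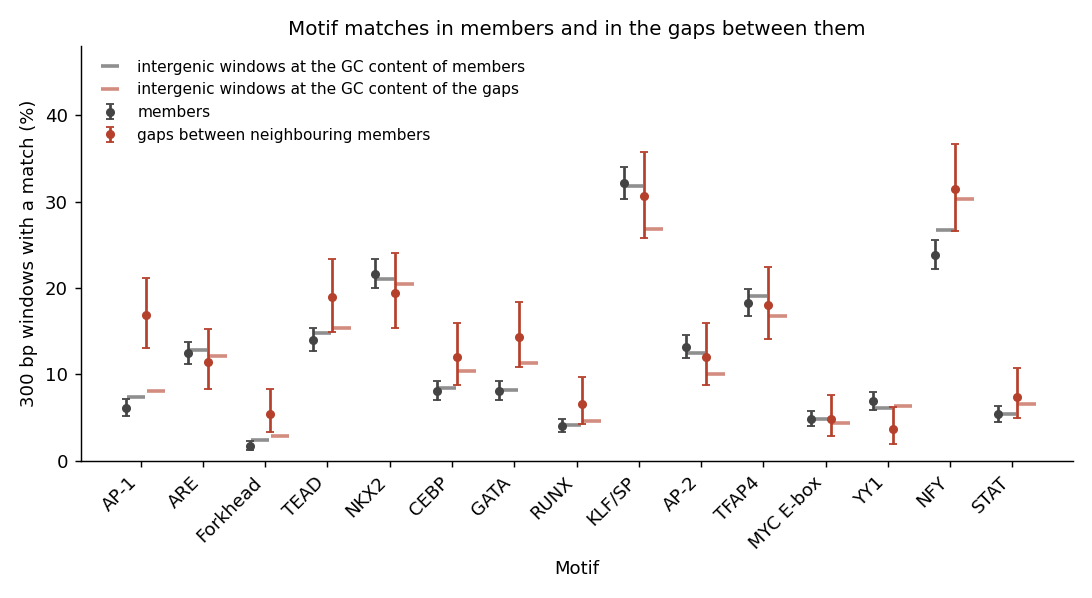
Share of 300 bp windows with a motif match (vertical axis, %) for 15 motifs (horizontal axis; ARE, antioxidant response element), with exact 95% intervals as bars. Dark points are members, red points the gaps of up to 1 kb between neighbouring members, and flat marks the tiled intergenic windows at the same GC content; the AP-1 point of the gaps, at 16.9%, stands above its window share of 8.10%.

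The position of AP-1 around all members showed a like shape. These include the members that flanked the gaps, so that matches in the gaps can be counted in both, and no profile without those members is given. In steps of 100 bp, a match started in 2.08% of members (1.56 to 2.72) at the centre, in 5.45% (4.59 to 6.41) at 400 bp to the left and in 5.65% (4.77 to 6.63) at 400 bp to the right. At 1500 bp the shares were 3.48% (2.80 to 4.28) and 3.96% (3.23 to 4.81), between the centre and the shoulders. Members that were not repeat-rich gave 2.44% at the centre and 5.6% and 5.38% at 400 bp on either side. The mean GC content moved the other way at the centre, with 54.3% there and 49.7% and 49.1% at 400 bp, but the shoulders and the outer steps, at 48.5%, differed little. Forkhead matches occurred in 0.801% (0.49 to 1.23) at the centre, 0.320% (0.138 to 0.630) at 100 bp left and 0.641% (0.367 to 1.04) at 100 bp right, against 1.12% (0.746 to 1.62) and 1.40% (0.978 to 1.94) at 400 bp. Only the step 100 bp left had an interval apart from both of those at 400 bp.

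**Figure D4:**
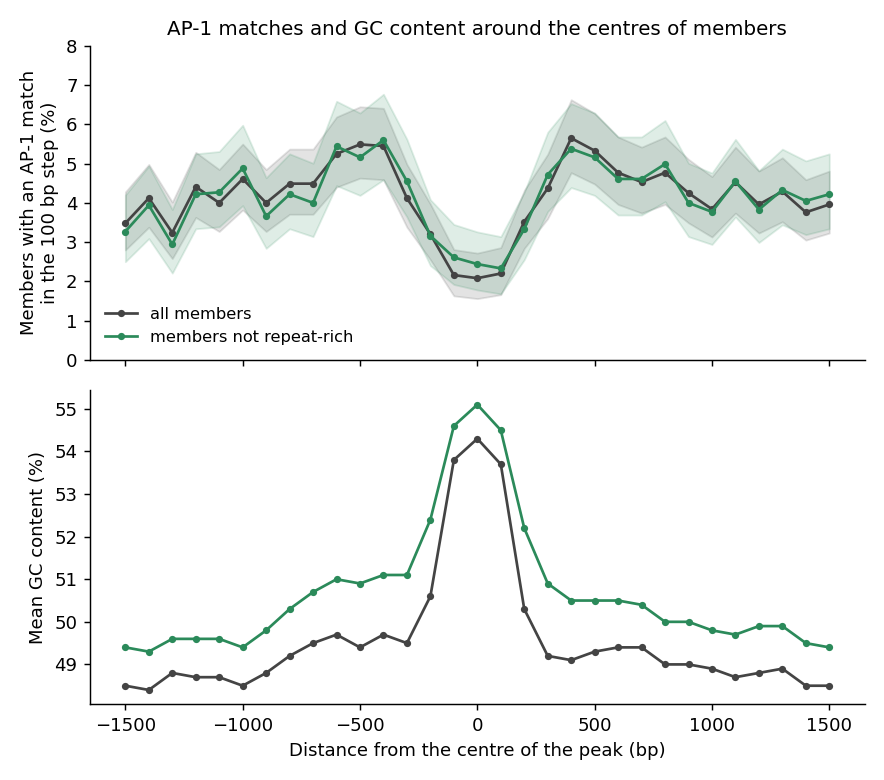
Members with an AP-1 match (upper panel, %, shaded exact 95% intervals) and mean GC content (lower panel, %) in 100 bp steps from 1500 bp left to 1500 bp right of the peak centre (horizontal axis), for all members (dark) and those not repeat-rich (green). AP-1 is lowest at the centre, 2.08% of all members, and highest about 400 bp to each side, where GC content is lower than at the centre.

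Members with an AP-1 match in the peak were otherwise like the rest. Their median −log10 q was 2.40 (2.16 to 2.82) against 2.47 (2.45 to 2.59), their width 269 bp (249 to 289) against 274 bp (269 to 280), and their nearest start was marked in 56.2% (48 to 64.2) against 58.9% (56.9 to 60.9). Of the members with −log10 q of at least 5, 8.05% (4.47 to 13.1) held AP-1. Across distance, the share went from 5.06% (2.64 to 8.68) at 3 to 5 kb to 7.33% (5.45 to 9.60) at 10 to 20 kb and 5.33% (3.08 to 8.52) at 40 to 50 kb, with overlapping intervals.

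Chromosomes differed widely in the density of members. Chromosome 22 had 17.0 per Mb (13.8 to 20.8), chromosome 17 had 11.7 and chromosome 14 had 11.5, whereas chromosome 4 had 2.01 (1.43 to 2.75), chromosome 13 had 1.77 (1.01 to 2.87), chromosome 18 had 1.20 (0.549 to 2.28) and chromosome X had 0.248 (0.0910 to 0.540). H3K4me3 marked 10.9% of all protein-coding starts on chromosome 18 and 3.45% on X, against 36.9% on chromosome 22 and 38.2% over the genome. On chromosome 22 only 30.9% of the 94 members had a marked nearest start. The number of copies of each chromosome in the line moves peak calls of both marks and was not measured here.

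**Figure D5:**
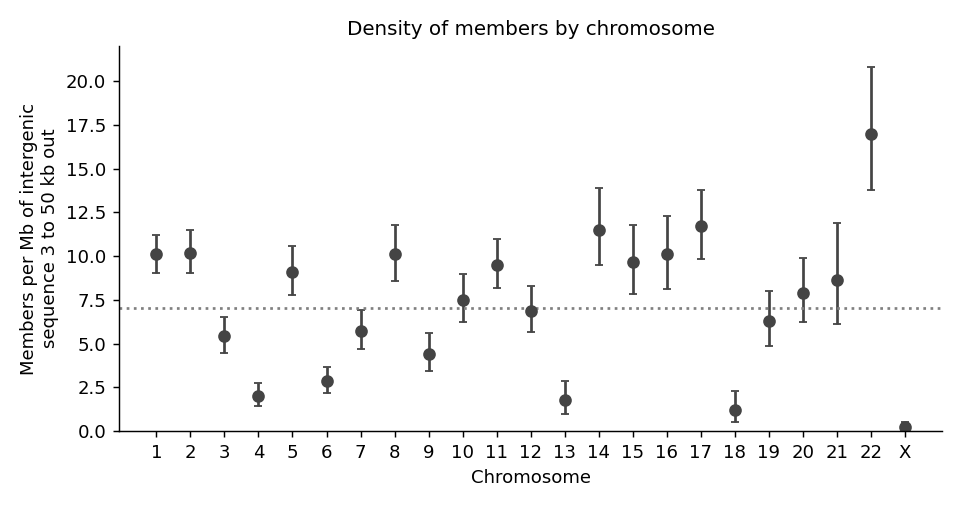
Members per Mb of the intergenic sequence 3 to 50 kb from a protein-coding start (vertical axis) for chromosomes 1 to 22 and X (horizontal axis), with exact Poisson 95% intervals; the dotted line is the value over all chromosomes, 7.01. Chromosome 22 lies highest at 17.0, and of those shown, chromosomes 13, 18 and X lie below 2.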

How the data were processed

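Chromatin of untreated H2087 cells was cross-linked with formaldehyde, immunoprecipitated with antibodies to H3K27ac or H3K4me3 and sequenced, with 1 library per mark. Per the labels and the study's methods, the authors used bcl2fastq 1.8.4, Bowtie 1.1.1 on hg19, SAMtools 1.2, Picard 1.118, MACS2 2.1.0 and ChIPseeker 1.6.6. The threshold of the peak calling, its control and the treatment of duplicate and multiply mapping reads are not given in the sources used here. The deposited lists give 1 entry per summit with a value without a header, read here as the −log10 q of the authors' peak caller, because it was never under 1.303. This value grows with depth and copy number and was compared within 1 list.

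Distinct intervals were taken as peaks with their highest value, and positions are 1-based. Distances run from the edge of a peak to the outer 5′ end of a gene of GENCODE 44 on GRCh37, apart from densities, which use the peak centre. Shares have exact Clopper-Pearson 95% intervals, medians intervals from order statistics, and densities exact Poisson intervals. Tiled windows of 300 bp covered all intergenic sequence that met the position rule. Functions were tested on simulated data (Python 3.11.15, numpy 2.4.6, pandas 2.3.3, scipy 1.17.1).

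The members, gene lists, motifs and named items were chosen with earlier results of these data known. Named items were the 10 strongest and 3 widest members, those at the limits, the 10 genes nearest to most members, the 5 stretches with most members and list genes with a member. No sequence of chromosome 8 was printed, and 1 marker list and some windows chosen by these rules are not reported here. Gene lists were also counted without repeat-rich members. The repeat-rich measure and the gap sequences were added after the data had been seen. PECAM1 was not found among the protein-coding symbols. Alternatives were the upper part of the lists, merging within 1 kb, an H3K4me3 distance of 1 kb, all transcript starts, bodies of all genes, removal of multi-copy or repeat-rich members, entries per summit, and other windows and distances. The closing section gives the values that moved.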

Additional observations from a re-analysis of the deposited data

How the results depend on the processing

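No paired analysis was possible because the 2 lists came from single libraries without replicates. A value was counted as moved when it left the 95% interval of the value reported, or for the number of members when it changed by over 1.5 times. Under alternatives listed at the outset, 66 values stayed and 18 moved, and under those added after seeing the data, 9 stayed and 5 moved. With peaks at or above the median −log10 q of both lists, there were 1235 members with a median width of 317 bp and −log10 q of 3.55, a marked nearest start for 44.9%, a neighbour within 10 kb for 64.6%, and 3.78% of genes with a member. With the upper part of the H3K4me3 list alone, 43.4% had a marked nearest start. Merging within 1 kb gave a width of 283 bp, 56.2% with a marked start and 63.3% with a neighbour. Without multi-copy members the width was 285 bp, the GC content 54.0% and the share of genes 5.64%. Without repeat-rich members these were 286 bp, 55.0% and 5.14%. With gene bodies of any type, 5.5% of genes had a member. H3K4me3 within 3 kb gave 65.7% of members with a marked start, a neighbour within 5 kb 62%, and 200 bp windows a GC content of 54.0% and AP-1 in 4.33%. Members of −log10 q of at least 5 had a marked start in 65.5% and AP-1 in 8.05%. Shares with a marked nearest start stayed above the share of all starts by the same definition, 38.2% with the whole list, 26.8% with its upper part and 43.3% within 3 kb. Without replicates or read counts, the depth limits every absence of a peak.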

Other observations

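Members also lay in genes of other kinds. The centres of 498 members (19.9%, 18.4 to 21.6) were inside an lncRNA gene and 1976 (79.1%) inside no annotated gene of any type. Members in lncRNA genes had a median −log10 q of 2.58 (2.40 to 2.82) and the others 2.45 (2.45 to 2.54), and their nearest protein-coding start was marked in 60.4% (56.0 to 64.8) and 58.3% (56.1 to 60.5). Beyond 50 kb, 39.8% (37.8 to 41.9) of the H3K27ac-only peaks lay in an lncRNA gene.

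Members with more than 1 summit numbered 73 (2.92%, 2.30 to 3.66). Their median width was 615 bp (578 to 743), and AP-1 occurred in 5.48% (1.51 to 13.4) of their central windows. An H3K4me3 peak lay within 1 kb of 167 members (6.69%, 5.74 to 7.74), and the median distance of a member to the nearest H3K4me3 peak was 15 kb (14.1 to 15.9).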
